A study of Mus musculus with 6 samples.

Results

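Receptors and bridging proteins of efferocytosis, the uptake of dying cells, and of scavenging were followed in cultured mouse macrophages derived from bone marrow (BMDMs). The genes were chosen by symbol as a functional set, namely Mertk, Axl, Gas6, Pros1, Mfge8, Stab1, Cd36, Msr1, Marco and Trem2, and all 10 were found among the 16519 genes of the count table. Bulk RNA sequencing compared 3 libraries from Trmt61af/fLysmCre mice (KO), which carry floxed Trmt61a and Cre, with 3 libraries from Trmt61af/f mice (WT), which carry the same floxed alleles and no Cre. Trmt61a is the catalytic subunit of a tRNA methyltransferase. Cre is driven from the myeloid Lyz2 (LysM) gene, so the presence of Cre and the loss of Trmt61a cannot be told apart in this design. The labels used give no age and no stimulus, and they do not state whether replicates are separate animals or cultures, so the p-values rest on differences between libraries that may be technical replicates.

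Macrophages clear dying cells by efferocytosis. Mertk and Axl are receptor tyrosine kinases of the TAM family. They do not touch the dying cell themselves but bind the bridging proteins Gas6 and Pros1 (protein S), which attach to phosphatidylserine exposed on it. Mfge8 is a bridge of another kind and links phosphatidylserine to integrins that contain Itgav. Stab1 is a large endocytic receptor that takes up phosphatidylserine-bearing cells and modified proteins. Cd36 is a class B scavenger receptor for oxidised lipids and long-chain fatty acids, while Msr1 and Marco are class A scavenger receptors for modified lipoproteins and microbes. Trem2 is a lipid-sensing receptor that signals through the adaptor Tyrobp.

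The libraries held between 37021855 and 41033179 gene counts. Trmt61a was lower in every library labelled KO, at 0.608 ± 0.128 CPM (counts scaled to a common library size with TMM factors) against 4.64 ± 0.648 CPM in WT (SD, n = 3; log2 fold change -2.92, standard error 0.28, edgeR adjusted p = 0.00219), and its partner Trmt6 stood at 23.9 ± 0.633 and 24.3 ± 2.48 CPM. Macrophage markers were abundant, and 8 of them, leaving out Lyz2 because it drives Cre (Adgre1, Csf1r, Cd68, Itgam, Fcgr1, Cd14, Ptprc and Spi1) summed to between 10803 and 12163 in KO against between 11000 and 11793 CPM in WT. Lyz2 itself was lower in KO, at 9503 ± 1161 against 18874 ± 2120.4 CPM (SD, n = 3; log2 fold change -0.99, standard error 0.10, edgeR adjusted p = 0.00735). Markers of other cells were present at lower levels, among them 9 neutrophil genes summing to between 977 and 1773 CPM and 8 fibroblast and stromal genes summing to between 117 and 264 CPM. In bulk RNA, fewer cells of a type and less RNA per cell cannot be told apart.

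Levels between genes were compared as CPM per kilobase of exon sequence, averaged over the 6 libraries. Stab1 (486), Trem2 (473) and Cd36 (470) led the set, and their ranges over libraries overlapped, so their order is not resolved. The bridging ligand Gas6 followed at 267 CPM per kilobase, below the lowest Cd36 library. Mertk (70.9) and Mfge8 (70.4) overlapped with each other and lay above Msr1 (50.3), which overlapped with Axl (38.0). Pros1 (18.6) and Marco (10.1) were lowest, each separated from its neighbour above. Stab1, the highest, lay above 99.4% of tested genes on this scale and Marco, the lowest, above 58.1%. Behind these levels stood between 511 counts (Marco in WT 1) and 181349 counts (Stab1 in KO 1). Counting error was small beside the spread between libraries, with an exception for Pros1 in KO. Its KO libraries, at 2315 to 2585 counts and 62.8 ± 1.30 CPM (SD, n = 3), differed by about as much as counting error.

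**Figure D1:**
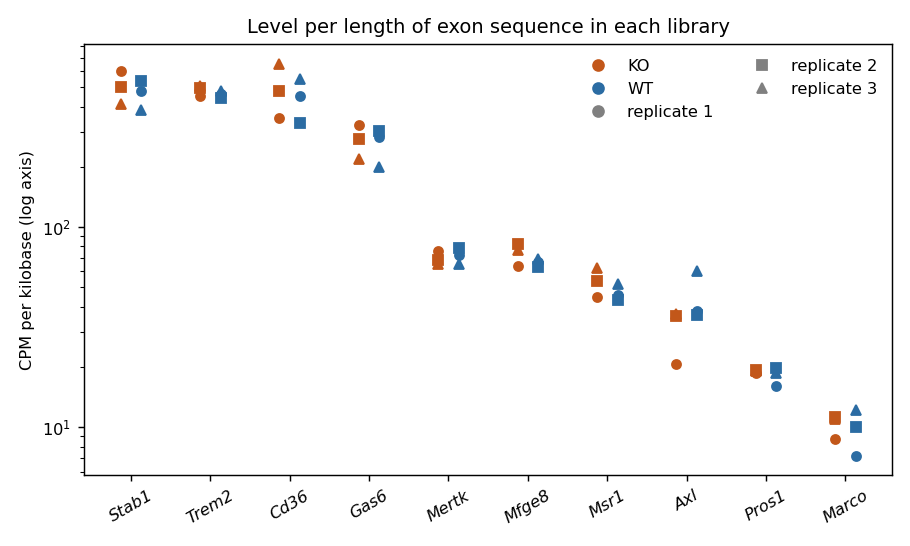
Level of each gene in each library as CPM per kilobase of exon sequence on a log axis; orange points are KO, blue points are WT, and the marker shape gives the replicate number. Stab1, Trem2 and Cd36 sit together at the top, and Marco is lowest at 7.19 to 12.2 CPM per kilobase.

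The start regions of 4 members are shown because these genes, in pairs, took opposite places among the libraries (described below), Stab1 and Gas6 on one side and Axl and Cd36 on the other. Each window runs from 250 bases before to 50 bases after the RefSeq start, in GRCm38.p6, the assembly of mm10. The windows are chr14:31168592-31168891 (minus strand), chr8:13494486-13494785 (minus strand), chr7:25788684-25788983 (minus strand) and chr5:17835847-17836146 (minus strand), written 5′ to 3′ on the gene's strand. The Cd36 window lies inside the annotated span of the gene, at an internal start. The Axl start is internal too, as the annotated span reaches 25788924, and most of its window lies inside that span. The Stab1 start lies just inside its span, which reaches 31168651. Capitals mark GAGGAA, the core of sites for the macrophage factor PU.1, and TGCTGA, a half-site of MAF factors, on either strand; no base belonged to both.
Stab1: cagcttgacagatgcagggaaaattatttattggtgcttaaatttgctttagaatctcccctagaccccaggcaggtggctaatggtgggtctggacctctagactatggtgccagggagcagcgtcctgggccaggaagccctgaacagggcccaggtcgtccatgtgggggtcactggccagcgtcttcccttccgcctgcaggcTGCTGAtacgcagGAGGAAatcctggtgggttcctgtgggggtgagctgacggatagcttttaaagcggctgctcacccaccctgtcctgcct
Gas6: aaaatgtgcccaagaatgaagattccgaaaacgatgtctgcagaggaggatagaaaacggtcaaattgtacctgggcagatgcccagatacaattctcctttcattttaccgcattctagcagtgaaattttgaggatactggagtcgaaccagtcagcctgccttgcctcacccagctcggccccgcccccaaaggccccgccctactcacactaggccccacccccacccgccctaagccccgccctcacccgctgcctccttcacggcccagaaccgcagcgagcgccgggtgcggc
Axl: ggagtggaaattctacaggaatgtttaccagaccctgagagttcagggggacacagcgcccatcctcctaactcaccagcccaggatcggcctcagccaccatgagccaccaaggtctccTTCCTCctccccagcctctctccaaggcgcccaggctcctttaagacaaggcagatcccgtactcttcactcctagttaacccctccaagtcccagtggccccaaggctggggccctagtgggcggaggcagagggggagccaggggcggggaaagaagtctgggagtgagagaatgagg
Cd36: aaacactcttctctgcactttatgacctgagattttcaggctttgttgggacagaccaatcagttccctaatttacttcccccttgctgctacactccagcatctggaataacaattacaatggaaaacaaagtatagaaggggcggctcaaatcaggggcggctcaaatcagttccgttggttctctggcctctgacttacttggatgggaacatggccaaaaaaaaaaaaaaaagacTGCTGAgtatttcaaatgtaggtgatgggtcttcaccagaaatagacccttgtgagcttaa

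Of the 10 members, 9 had a start region in the RefSeq table, Msr1 being the other. GAGGAA stood in 5 of the 9 (Axl, Stab1, Marco, Trem2 and Mfge8), where 28.3% of all 32851 start regions of this length hold it, and TGCTGA in 2 (Stab1 and Cd36), against 19.5%. The GC box GGGCGG was found in 6 (Mertk, Axl, Gas6, Pros1, Cd36 and Mfge8), against 35.7%, and the AP-1 letters TGANTCA in Trem2 alone, against 7.81%. TATAAA was in none of the 9, against 13.6%. Both strands were searched. The letters did not follow the pairs, since GAGGAA was in Stab1 and Axl and TGCTGA in Stab1 and Cd36. These matches describe the letters and are not evidence of binding.

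The comparison of genotypes asked whether these genes differ between KO and WT macrophages. None of the 10 passed at an adjusted p of 0.05 in edgeR (quasi-likelihood, over 12605 tested genes), where 0.0317% of tested genes passed, and all 10 had an adjusted p of 0.99995. At an unadjusted p under 0.05 there were 0 members in edgeR (3.1% of tested genes) and 0 in DESeq2 (2.82%), while limma voom gave 1, Axl (3.23%). Other fits also gave members before adjustment: edgeR without robust estimation gave 1, Axl (3.2%), the replicate block 2, Axl and Msr1 (3.24%), and the fit without KO 1 gave 2, Msr1 and Mfge8 (5.34%), as did that without KO 1 and WT 2 (4.28%), which was chosen after seeing the data. None of these fits called a member after adjustment, and neither DESeq2 nor limma voom called a member after adjustment. A setting chosen after seeing the data, which left out KO 1 and WT 3, the libraries with the lowest and the highest Axl, called 1 member (Msr1), where 0.678% of tested genes passed, and gave 5 at an unadjusted p under 0.05 (Mertk, Gas6, Msr1, Marco and Mfge8), where 12.7% did; libraries picked by their values give no independent evidence, and this call supports nothing here. KO and WT values overlapped for every member, where 8.65% of tested genes had groups that did not overlap. The log2 fold change of KO minus WT was above 0 for 8 members and below 0 for Mertk and Axl, with a median of 0.07. Over all tested genes the median was 8.37e-05 and 50% were above 0.

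**Figure D2:**
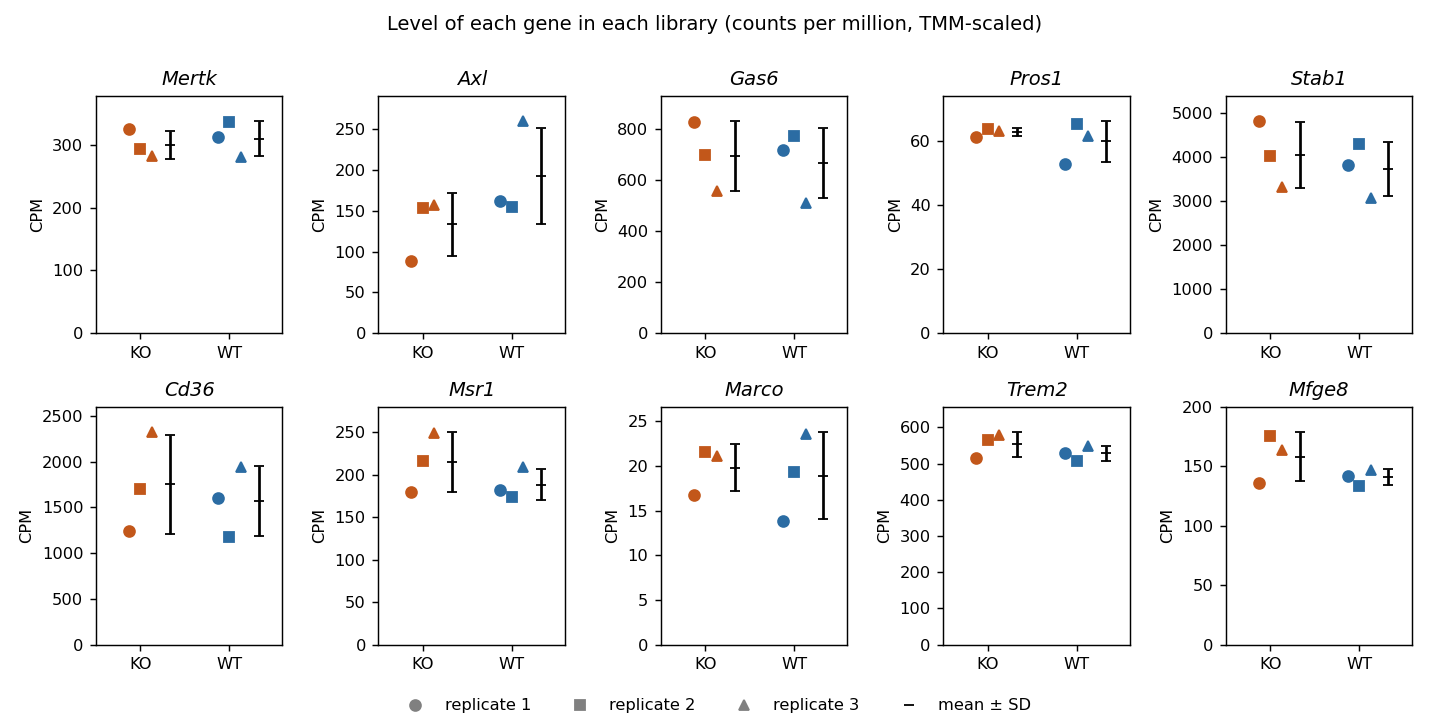
CPM of each gene in each library, with the mean and SD of each genotype (n = 3) as a bar to the right of the points; each vertical axis starts at 0. KO and WT points overlap in all 10 panels, and Axl has the highest ratio between its extreme libraries (2.92-fold), from 89.0 CPM in KO 1 to 259.8 CPM in WT 3.

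Among the receptors, Mertk (Entrez Gene 17289, chromosome 2, 128698915 to 128803162) was at 325, 293 and 282 CPM in KO 1 to 3 and at 312, 337 and 281 CPM in WT 1 to 3. Its log2 fold change was -0.05 with standard error 0.08 and a 95% interval from -0.22 to 0.12, and it turned to 0.016 without WT 2. The genotypes spanned nearly the same range, and the interval lay within 1.5-fold. Axl (Entrez Gene 26362, chromosome 7, 25756500 to 25788924) was at 89.0, 154 and 157 CPM in KO 1 to 3 and at 162, 155 and 259.8 CPM in WT 1 to 3. KO 1 was low and WT 3 high, and the remaining libraries lay between 154 and 162 CPM. The mean was 133 ± 38.4 in KO against 192 ± 58.5 CPM in WT (SD, n = 3). Its log2 fold change was -0.53 with standard error 0.32 and an interval from -1.36 to 0.30, the widest of the set. Without KO 1 it was -0.31 and without WT 3 it was -0.25. Per kilobase, the ratio of Axl to Mertk was 0.275, 0.526 and 0.559 in KO 1 to 3 and 0.523, 0.462 and 0.929 in WT 1 to 3, so Mertk was above Axl in every library. The ratio did not differ by genotype beyond its spread (difference -0.49 on the log2 scale, exact two-sided permutation p = 0.6, adjusted over 3 ratios 0.9, where 0.1 is the smallest p that 3 against 3 allow). Its difference was -0.16 without KO 1 and -0.18 without WT 3.

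The TAM ligands differed more from each other than between genotypes. Gas6 (Entrez Gene 14456, chromosome 8, 13465374 to 13494535) stood at 829, 698 and 556 CPM in KO 1 to 3 and at 718, 770 and 510.1 CPM in WT 1 to 3. The highest and lowest libraries, KO 1 and WT 3, were 1.62-fold apart. The log2 fold change was 0.06 with standard error 0.21 and an interval from -0.46 to 0.58, and it turned to -0.09 without KO 1 and -0.10 without WT 3. Pros1 (Entrez Gene 19128, chromosome 16, 62854307 to 62929346) was far steadier, at 61.4, 63.9 and 63.3 CPM in KO 1 to 3 and at 52.9, 65.3 and 61.6 CPM in WT 1 to 3. Only WT 1 stood apart, and without it the log2 fold change went from 0.07 (interval -0.11 to 0.24) to -0.01. Per kilobase, Gas6 exceeded Pros1 by between 10.7-fold (WT 3) and 17.6-fold (WT 1). That ratio had a difference of -0.01 on the log2 scale (exact two-sided permutation p = 0.9, adjusted 0.9). Gas6 overlaps Tmem255b in the annotation, and as the sources used here do not state the strand setting of the counting, reads could be shared; Tmem255b itself had at most 8 counts in a library.

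Mfge8 (Entrez Gene 17304, chromosome 7, 79133768 to 79149060), the bridge to integrins, was at 136, 176 and 164 CPM in KO 1 to 3 and at 142, 134 and 147 CPM in WT 1 to 3. KO 2 and KO 3 lay above all WT libraries and KO 1 lay among them. The log2 fold change was 0.17 with standard error 0.09 and an interval from -0.03 to 0.36, and it was 0.089 without KO 2 and 0.27 without KO 1. Mfge8 had the smallest unadjusted p of the members in edgeR (0.0855; adjusted p = 0.99995). Of the integrin genes that pair with it, Itgb3 was at 50.4 ± 5.54 in KO against 40.2 ± 4.61 CPM in WT (SD, n = 3; log2 fold change 0.33, edgeR adjusted p = 0.99995). Itgb5 and Itgav had log2 fold changes of 0.04 and 0.02.

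Stab1 (Entrez Gene 192187, chromosome 14, 31139017 to 31168651) was the most abundant member in CPM, at 4808, 4023 and 3306 in KO 1 to 3 and at 3817, 4289 and 3070.04 in WT 1 to 3. The ranges of the genotypes overlapped, with the highest library in KO and the lowest in WT. Its log2 fold change was 0.12 with standard error 0.17 and an interval from -0.29 to 0.52, falling to -0.02 without KO 1 and to -0.0018 without WT 3. Stab1 overlaps Nt5dc2 and the noncoding Gm52148, with the same limit on strand, and Nt5dc2 was at 77.0 ± 7.74 in KO against 76.4 ± 4.99 CPM in WT (SD, n = 3).

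Cd36 (Entrez Gene 12491, chromosome 5, 17781690 to 17888959) varied almost 2-fold between libraries, at 1242, 1698 and 2320.01 CPM in KO 1 to 3 and at 1598, 1176 and 1942 CPM in WT 1 to 3. Each genotype held a low library (KO 1, WT 2) and a high one (KO 3, WT 3). The log2 fold change was 0.16 with standard error 0.30 and an interval from -0.60 to 0.92, and it turned to -0.10 without KO 3 and -0.02 without WT 2. Msr1 (Entrez Gene 20288, chromosome 8, 39543232 to 39642750) was at 179, 216 and 249 CPM in KO 1 to 3 and at 182, 173 and 209 CPM in WT 1 to 3. KO 2 and KO 3 were above the WT libraries, and KO 1 lay between WT 2 and WT 1. Its log2 fold change was 0.19 with standard error 0.12 and an interval from -0.10 to 0.48, and it was 0.072 without KO 3 and 0.31 without KO 1. Marco (Entrez Gene 17167, chromosome 1, 120474538 to 120505024) was at 16.8, 21.5 and 21.1 CPM in KO 1 to 3 and at 13.9, 19.4 and 23.5 CPM in WT 1 to 3. WT libraries spread below and above all KO libraries, with a log2 fold change of 0.07, an interval from -0.37 to 0.50 and -0.11 without WT 1. Per kilobase, Marco was between 0.158 and 0.235 of Msr1, with a difference between genotypes of -0.09 on the log2 scale (exact two-sided permutation p = 0.6, adjusted 0.9).

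Trem2 (Entrez Gene 83433, chromosome 17, 48346401 to 48352276) was the steadiest member, at 515, 565 and 579 CPM in KO 1 to 3 and at 529, 507 and 548 CPM in WT 1 to 3. The highest library was 1.14-fold above the lowest. Its log2 fold change of 0.07 had a standard error of 0.06 and an interval from -0.07 to 0.21. The adaptor gene Tyrobp was as even, at 710 ± 16.9 in KO against 692 ± 26.6 CPM in WT (SD, n = 3; log2 fold change 0.04).

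The intervals give the range of differences that the fit allows for each gene alone, without adjustment over genes. Like the p-values, they rest on differences between libraries that may be technical replicates. For 8 members the 95% interval lay within 1.5-fold in either direction, Cd36 was added within 2-fold, and Axl reached beyond 2-fold lower. Among the 8443 tested genes of at least 10 CPM, 96.1% lay within 1.5-fold and 99.1% within 2-fold.

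**Figure D3:**
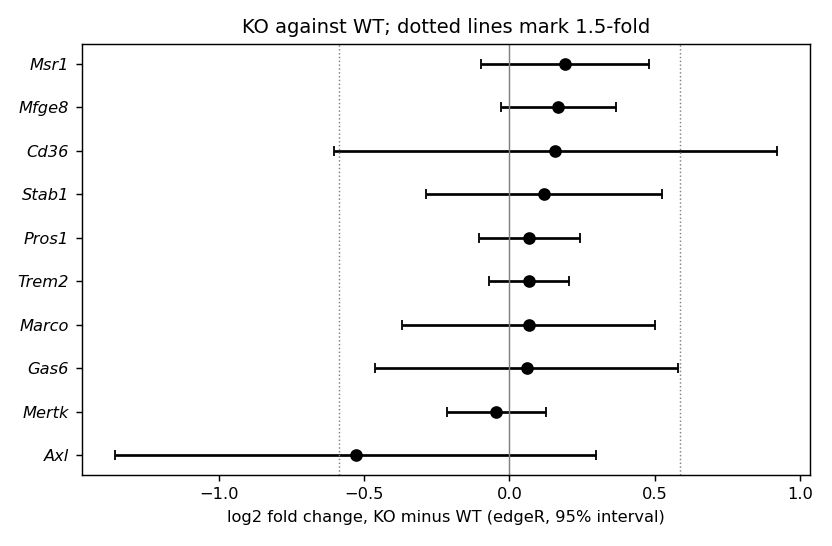
Log2 fold change of KO minus WT for each gene (points) with its 95% interval from edgeR (bars); the dotted lines mark 1.5-fold. Every interval crosses 0, Trem2 has the narrowest (-0.07 to 0.21) and Axl the widest (-1.36 to 0.30).

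The SD between libraries of the same genotype exceeded the size of the log2 fold change for every member except Axl and Mfge8. This SD of log2 CPM within genotypes was 0.44 for Axl, 0.41 for Cd36, 0.30 for Gas6 and for Marco, and 0.26 for Stab1. It was larger than that of 98.9%, 98.5%, 96.7%, 96.6% and 95.2% of genes of at least 10 CPM. At the other end, the SD of Trem2 was 0.07, larger than that of 32.9% of those genes. Axl, Cd36, Msr1 and Trem2 put the libraries in one order, KO 3, KO 2, KO 1 and WT 3, WT 1, WT 2 from high to low. Mertk, Gas6 and Stab1 put them in exactly the reverse order in both genotypes. So the receptor Mertk and its ligand Gas6 went together, while the second TAM receptor, Axl, went the other way. The first order was seen in 9.34% of tested genes and the reverse in 8.33%, against 4 and 3 of the 10 members. Among tested genes of at least 10 CPM the shares were 9.80% and 10.7%. Higher shares were not particular to the members. In lists described below, the first order was that of 4 of 12 lipid-associated, 5 of 19 engulfment and 3 of 12 housekeeping genes. The reverse was that of 3 of 7 receptors for signals that draw phagocytes and 5 of 14 genes around Trem2. Among partners of the TAM receptors each order held for 1 of 12. The pattern of the members was noticed after the values were seen, and the order of 2 libraries can rest on a small gap, as for Trem2.

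For the counts of genes, the first order was defined as that of the summed dividing-cell markers. That sum therefore has it by definition, and the match of its own genes is not independent. The summed markers of neutrophils and endothelial cells also had the first order, and the macrophage sum with Lyz2 the reverse. Gene by gene, 6 of 8 dividing-cell and 6 of 9 neutrophil markers had the first order, but 0 of 5 tested endothelial markers did. Of the 9 macrophage markers, 3 had the reverse order (Csf1r, Cd14 and Lyz2) and 1 the first (Fcgr1). Without Lyz2 the macrophage sum was in the reverse order in KO only. The 8 dividing-cell genes, Mki67 and Top2a among them, summed to 220, 307 and 385 CPM in KO 1 to 3 and to 278, 223 and 378 CPM in WT 1 to 3. The 9 neutrophil genes summed to 990.5, 1543 and 1587 CPM in KO 1 to 3 and to 1205, 977 and 1773 CPM in WT 1 to 3. All 9 were tested with 0 called and none was at 0. The fibroblast and stromal sum was 119, 264 and 223 CPM in KO 1 to 3 and 167, 117 and 172 CPM in WT 1 to 3, with 7 of its 8 genes tested and 0 called, and its order of libraries was that of Mfge8. Macrophage markers without Lyz2 moved by at most 0.10 on the log2 scale from their genotype's mean. A single summed list separated the genotypes, that of erythroid and megakaryocyte genes, at 171 to 197 CPM in KO and 149 to 156 CPM in WT. All 5 of its 8 genes that were tested lay above 0, and 0 were called. Other lists leaned the same way although their sums overlapped. All 8 dividing-cell genes (median log2 fold change 0.11) and 6 of 7 tested stromal genes (0.40) lay above 0. Of the neutrophil genes 5 of 9 lay above 0, of the tested endothelial genes 3 of 5 and of the macrophage genes 2 of 9. The part of dividing, neutrophil, stromal, erythroid or megakaryocyte cells in the members' values was not tested.

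**Figure D4:**
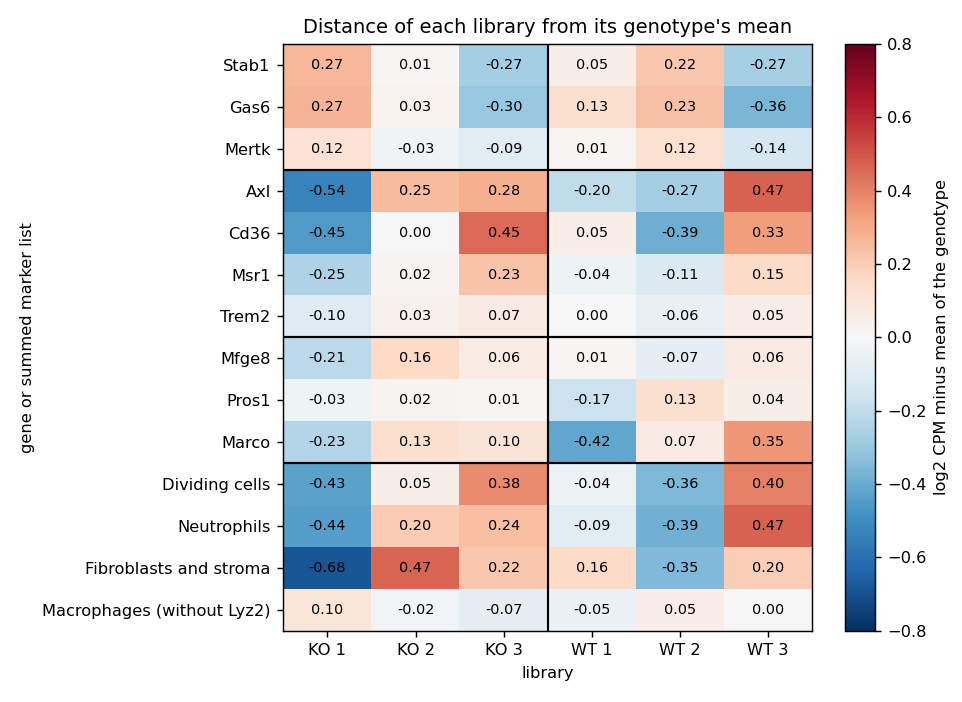
Each cell gives log2 CPM of a library minus the mean of its genotype, for the 10 genes and 4 summed marker lists; red is above and blue below that mean, and lines separate the 2 opposite orders, the other genes and the markers. KO 1 and WT 2 are high for Stab1, Gas6 and Mertk and low for Cd36, dividing-cell and neutrophil markers, and KO 3 and WT 3 are the other way round.

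The rest of the pathway was described with 9 lists, 121 genes in all besides the members, of which 116 were tested. Cd163, which takes up haemoglobin with haptoglobin, was the only one to pass, lower in KO at 8.43, 8.41 and 9.25 CPM against 22.3, 29.2 and 30.6 CPM (log2 fold change -1.65, standard error 0.13, edgeR adjusted p = 0.000337). Lower calls made up 0.0238% of tested genes. The median log2 fold change of the 116 genes was -0.01, with 48 above 0 and 68 below. At an unadjusted p under 0.05 edgeR gave 5 of the 116 (Cd163, Timd4, Itgb3, Cd300lb and Cx3cr1), where 3.1% of all tested genes did. After adjustment DESeq2 called 2, Cd163 and Timd4, where 0.127% of tested genes passed. Groups did not overlap for 5 of the 116, 2 higher and 3 lower in KO, where 8.65% of tested genes did not overlap.

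Of the other receptors and bridges for dying cells, 22 of 25 were tested, 0 passed, and 11 lay above 0 (median 0.000615). Timd4, a phosphatidylserine receptor of resident macrophages, was at 0.318, 0.478 and 0.539 CPM in KO 1 to 3 and at 1.14, 2.51 and 3.65 CPM in WT 1 to 3. Its groups did not overlap, but it did not pass in edgeR (log2 fold change -2.44, standard error 0.47, adjusted p = 0.478), and DESeq2 called it (adjusted p = 0.000852, from 0.000852 to 0.99984 over its alternatives, 0.127% of tested genes called). Cd300lb, an activating receptor that binds phosphatidylserine, was at 378 ± 6.45 in KO against 348 ± 3.69 CPM in WT (SD, n = 3; log2 fold change 0.12, edgeR adjusted p = 0.99995). The complement bridges C1qa, C1qb and C1qc had log2 fold changes of -0.084, 0.0027 and -0.0027. Havcr1, Adgrb1 and Megf11 had at most 9 counts in a library and were not tested.

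Partners of the TAM receptors gave 0 of 12 calls, with 2 above 0 (median -0.04). Tyro3, the remaining TAM receptor, was nearly absent at 0.428 ± 0.182 in KO against 0.604 ± 0.256 CPM in WT (SD, n = 3). Adam17 and Adam10, proteases that shed TAM receptors from the cell surface, had log2 fold changes of -0.02 and -0.03. Socs3, a brake on cytokine signalling, had -0.33, and Ptk2, a focal adhesion kinase, 0.19. The engulfment machinery had the narrowest range of log2 fold changes of these lists. They lay between -0.06 (Crkl, an adaptor of Dock1) and 0.11 (Pik3c3, a lipid kinase of phagosomes), while Cybb, the phagocyte oxidase subunit, had -0.06. Its 19 tested genes of 20 all had intervals within 1.5-fold. So did all 7 receptors for signals that draw phagocytes, all 12 housekeeping genes and 96.1% of tested genes of at least 10 CPM. Gulp1, an engulfment adaptor, had at most 11 counts in a library and was not tested.

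Receptors for signals that draw phagocytes to dying cells gave 0 of 7 calls, 2 of them above 0 (median -0.02). Cx3cr1, the fractalkine receptor, did not overlap between genotypes and was lower in KO, at 18.2 ± 2.16 against 21.8 ± 2.43 CPM (SD, n = 3; log2 fold change -0.26, edgeR adjusted p = 0.99995). Gpr132 and P2ry2, receptors for lipids and nucleotides, had -0.13 and 0.11. Among 16 tested scavenger receptors of 17, Cd163 was the only call and 8 were above 0. Scarb1, the receptor for high-density lipoprotein, had -0.14 and Ager, at 1.38 in KO against 1.97 CPM in WT, had -0.51.

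Genes around Trem2 gave 0 of 14 calls, 6 of them above 0 (median -0.0071). The smallest p-values belonged to Ms4a4a, a membrane protein gene (log2 fold change 0.17), Hcst, an adaptor gene (0.15), and Trem3 of the same locus (0.33). Genes often high in lipid-loaded macrophages gave 0 of 12 calls with 9 above 0 (median 0.05). The smallest p-values there belonged to the lipid chaperone Fabp5 (log2 fold change 0.19), the lipid droplet gene Plin2 (0.15) and the protease Ctsd (0.09), while the integrin gene Itgax had the highest fold change (0.23). Nuclear receptors and their targets gave 0 of 12 calls with 4 above 0 (median -0.02). Abca1, the cholesterol exporter, was at 1240.3 ± 53.7 in KO against 1142 ± 9.96 CPM in WT without overlap (SD, n = 3; log2 fold change 0.12, edgeR adjusted p = 0.99995), and Apoc1 and Lpcat3 had -0.44 and 0.06. Receptors and ligands that hold back uptake gave 0 of 8 calls, 1 above 0 (median -0.06), with Pirb at -0.09, Siglece at -0.36 and Sirpa at -0.05. The 12 housekeeping genes had a median of 0.02, with Pgk1 and Gapdh each at 0.08.

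By the same pattern over the 6 libraries, the closest of the genes of at least 10 CPM was Arl4c for Gas6 (Pearson r of log2 CPM 0.998), Gstm1 for Stab1 (0.995), Ing2 for Mertk (0.994) and Pdk1 for Axl (0.991). It was Atf3 for Cd36 (0.997), Hspa9 for Msr1 (0.995), Ldha for Trem2 (0.999), Ccn1 for Mfge8 (0.997), Mea1 for Marco (0.987) and Gnaq for Pros1 (0.969). Of 8442 other genes, between 35 (Marco) and 449 (Cd36) had r above 0.9 with a member, and all values share the same libraries. Each named gene is the highest of 8442 correlations over only 6 libraries. A high r is therefore expected by selection and is not evidence of shared regulation.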

How the data were processed

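Bulk RNA sequencing covered 6 BMDM libraries. The authors deposited raw read counts per gene; fastp, HISAT2, HTSeq and build mm10 are named in the submitters' processing notes, while versions, annotation, strand setting and filters are not stated in the labels. All values were whole numbers, with totals that differ between libraries. No column was left out. Genotype and replicate number came from the titles. The members and lists were chosen with earlier results of these data known. Named genes were the members, Trmt61a, Trmt6, up to 3 genes with the smallest p per list and the gene closest in pattern to each member; further names were chosen after their values were seen, and some genes under this rule are not reported here.

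Counts were fitted in edgeR 4.0.16 (R 4.3.3) with TMM factors, filterByExpr (minimum count 10), estimateDisp and robust quasi-likelihood fits; Benjamini-Hochberg adjustment ran over 12605 genes. Standard errors were derived from the log2 fold change and the F statistic. CPM use TMM-scaled library sizes, and a count of 3 equals 0.0730 to 0.0813 CPM. Exon lengths came from GENCODE M21 (16001 genes matched by symbol) and coordinates and start regions from RefSeq GRCm38.p6 (16438 genes matched by Entrez Gene ID). Replicates of a genotype differed by a chi-square of 12.6 to 39 per degree of freedom, so each library counted once. The fit was tested on simulated data. Alternatives were other factors, filters, DESeq2 1.42.0, limma 3.58.1 voom, a replicate block, no robust estimation and leaving out libraries.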

Additional observations from a re-analysis of the deposited data

How the results depend on the processing

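No member was called with other size factors, count filters or tools, with the replicate block or with any single library left out. Axl, Msr1, Trem2 and Mfge8 kept their direction in all 16 alternatives, and the other 6 members turned in at least 1. The count of all genes called, 4, became 16 with DESeq2, and that of list genes called, 1, became 2 (Cd163 and Timd4). With the replicate block 8 genes were called and 0 members; the same-numbered libraries did not deviate together throughout (correlations of deviations 0.04, -0.22 and 0.44 for numbers 1 to 3), so the numbers were not taken as pairs, and KO 1 correlated best with WT 2 (0.50). Leaving out each library in turn moved the log2 fold change of Mertk between -0.11 and 0.016, Gas6 between -0.10 and 0.20, Pros1 between -0.013 and 0.13, Stab1 between -0.025 and 0.25, Cd36 between -0.10 and 0.35, and Marco between -0.11 and 0.25. It moved Trmt6 between -0.11 and 0.043, Hcst between -0.031 and 0.24, Trem3 between -0.10 and 0.70, Siglece between -0.53 and 0.053, and Sirpa between -0.089 and 0.0046. The KO minus WT difference in the log2 ratio of Gas6 to Pros1 lay between -0.21 and 0.14. That of Marco to Msr1 lay between -0.28 and 0.0059, so neither difference between genotypes has a settled sign. Further alternatives were chosen after seeing the data. Without KO 1 and WT 2 together Hcst was at -0.015. Leaving out KO 1 and WT 3 was chosen because they hold the lowest and the highest Axl, so it is not an even-handed test; Axl then stood at -0.03, 86 genes (0.678%) were called, 1 member (Msr1, log2 fold change 0.39, edgeR adjusted p = 0.0281, from 0.0281 to 0.99996 over its alternatives) and 2 list genes, and signs turned for Gas6 (-0.25), Stab1 (-0.15), Pik3c3 (-0.038), Ms4a4a (-0.082), Hcst (-0.086), Siglece (0.11) and Sirpa (0.027). The cause of these shifts was not tested. The 95% intervals of Axl and Cd36 reached beyond 1.5-fold.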
